A study of Mus musculus with 9 samples.

Results

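Acox2, Acat3 and Acsm3 encode enzymes that make or use acyl-CoA, the activated form of a fatty acid or of acetate, and the level of each was measured by 1 probe of a colon microarray. The 3 probes were chosen by name from the 166924 probes of the array, with their published changes between these same groups known. Their levels and differences are therefore given as a description, without a test. The 9 arrays held colonic RNA of male C57BL/6J mice aged 10 weeks, with 3 arrays per group. Control mice drank distilled water only. Mice of the other two groups drank 3% dextran sulfate sodium (DSS), which injures the colonic epithelium, in distilled water for 7 days. In the second week, between day 8 and day 14, the DSS+PAMK mice were gavaged with 200 mg/kg PAMK, a plant polysaccharide obtained from Atractylodes macrocephala, while Control and DSS mice received saline. The samples were colonic tissue and not separated cells, so a lower level of a transcript per cell and fewer cells that carry it cannot be told apart. The replicates are separate samples in the labels, and the spread between them covers what separates these samples only.

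An acyl-CoA is formed when a synthetase joins a fatty acid to coenzyme A, and it is then shortened by oxidation in mitochondria or peroxisomes. Acsm3 belongs to the medium-chain acyl-CoA synthetases of the mitochondrial matrix, which carry out the activation step for short and medium chains. Acox2 is the peroxisomal oxidase for branched acyl-CoAs, among them the CoA esters of bile acid precursors, and it carries out the first oxidation step. Acat3 belongs to the acetyl-CoA acetyltransferases, which join or split acetyl-CoA units. Colonocytes are known for taking much of their energy from butyrate, a short fatty acid made by gut bacteria.

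The probes are shown because every value given for a gene rests on its single probe, and each was 60 bases long. They are printed as deposited, 5′ to 3′.
Acox2: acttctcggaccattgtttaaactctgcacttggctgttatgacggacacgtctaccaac
Acat3: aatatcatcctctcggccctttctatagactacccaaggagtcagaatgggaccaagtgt
Acsm3: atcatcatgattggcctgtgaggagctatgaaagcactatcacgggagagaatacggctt
Each probe held 28 G or C bases (46.7%), and the median over all probes was 27. No other probe of the array shared a run of 20 bases with any of them on either strand (0 probes each). In the RefSeq gene table of assembly GRCm38.p6, the protein-coding genes beside Acat3 are Tcp1 and Acat2, the latter its paralog. Whether transcripts of Acat2 also bind the Acat3 probe was not tested. No position is given for the probes, since the deposited files mark them as unmapped.

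Between 55.4% and 72.2% of the probe spots of an array were well above background, as marked by the scanning software, and 0 were saturated. The 3 members were well above background on 9 of 9 arrays each, and none of their spots was marked as an outlier. Across all 99610 tested probes the median log2 difference was -0.04 for DSS vs Control, 0.02 for DSS+PAMK vs DSS and -0.01 for DSS+PAMK vs Control. At a fold change of 2 or more with an unadjusted limma p of 0.05 or less, 1.98% of these probes were higher and 1.08% lower in DSS vs Control. The shares were 0.644% and 1.06% in DSS+PAMK vs DSS, and 1.65% and 1.02% in DSS+PAMK vs Control. After Benjamini-Hochberg adjustment limma left 175 probes at 0.05 in DSS vs Control, 0 in DSS+PAMK vs DSS and 0 in DSS+PAMK vs Control, against 13123, 7192 and 13874 before adjustment. These counts are over the whole array and are not a test of the 3 members.

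Acox2 was higher after DSS than in Control mice, and lower again after PAMK treatment. The normalized log2 intensity of Acox2 in Control replicates 1, 2 and 3 was 7.32, 5.66 and 7.66. In the DSS group it was 8.70, 9.24 and 8.77. In the DSS+PAMK group it was 7.56, 7.84 and 7.99. All 3 DSS arrays lay above all other arrays, the DSS+PAMK arrays overlapped the Control arrays, and Control replicate 2 stood well below the other 2 Control arrays. The group means were 6.88 ± 1.07, 8.90 ± 0.29 and 7.80 ± 0.22 (SD, n = 3 each). The DSS mean was 2.02 above the Control mean on the log2 scale, a 4.06-fold higher intensity, with a standard error of 0.46 from limma. Compared with the DSS mean, the DSS+PAMK mean of Acox2 was 2.16-fold lower, a log2 difference of -1.11. The DSS+PAMK mean was 0.91 above the Control mean, which is 1.88-fold. Without Control replicate 2 these values changed to 1.42 for DSS vs Control and 0.31 for DSS+PAMK vs Control.

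Acat3 was also higher in the DSS group and near the Control level in the DSS+PAMK group. Its normalized log2 intensity was 4.68, 4.61 and 4.53 in the Control group. The DSS arrays gave 5.83, 5.92 and 5.69, and the DSS+PAMK arrays gave 4.94, 4.61 and 4.66. On this quantile normalized scale the DSS arrays lay 1.01 above the highest Control array and 0.75 above the highest DSS+PAMK array. The Control and DSS+PAMK arrays overlapped. Before normalization between arrays, the lowest DSS intensity was 47.0, against 35.0 on the brightest Control array and 30.6 on the brightest DSS+PAMK array. The means were 4.61 ± 0.075, 5.81 ± 0.12 and 4.74 ± 0.18 (SD, n = 3 each). Acat3 was 2.31-fold higher in DSS vs Control (log2 difference 1.21, standard error 0.15). It was 2.11-fold lower in DSS+PAMK vs DSS, where the log2 difference was -1.07. The difference between the DSS+PAMK and Control groups was 0.13, and it was -0.25 when each array was instead shifted to its 75th percentile, so its direction depended on the scaling. A normexp background correction started from the mean signal, which for Acat3 was between 59.1 and 106, and added an offset of 50 after correction. Under it the DSS vs Control difference was 0.47 and the DSS+PAMK vs DSS difference was -0.42.

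Acsm3 had another pattern. Its level in the DSS group overlapped that of the Control group, and it was higher in the DSS+PAMK group than in either. The normalized log2 intensity was 6.34, 7.34 and 6.45 in the Control group. It was 6.82, 6.50 and 6.88 in the DSS group. It was 7.85, 7.69 and 7.76 in the DSS+PAMK group. Control replicate 2 was the highest Control array for Acsm3, although for Acox2 it was the lowest. The means were 6.71 ± 0.55, 6.73 ± 0.21 and 7.77 ± 0.080 (SD, n = 3 each). Acsm3 was 2.04-fold higher in DSS+PAMK vs DSS (log2 difference 1.03, standard error 0.26) and 2.08-fold higher in DSS+PAMK vs Control (1.06). The lowest DSS+PAMK array lay 0.81 above the highest DSS array and 0.35 above the highest Control array. The DSS vs Control difference was 0.03, and it lay between -0.16 and 0.34 when single arrays were left out.

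**Figure D1:**
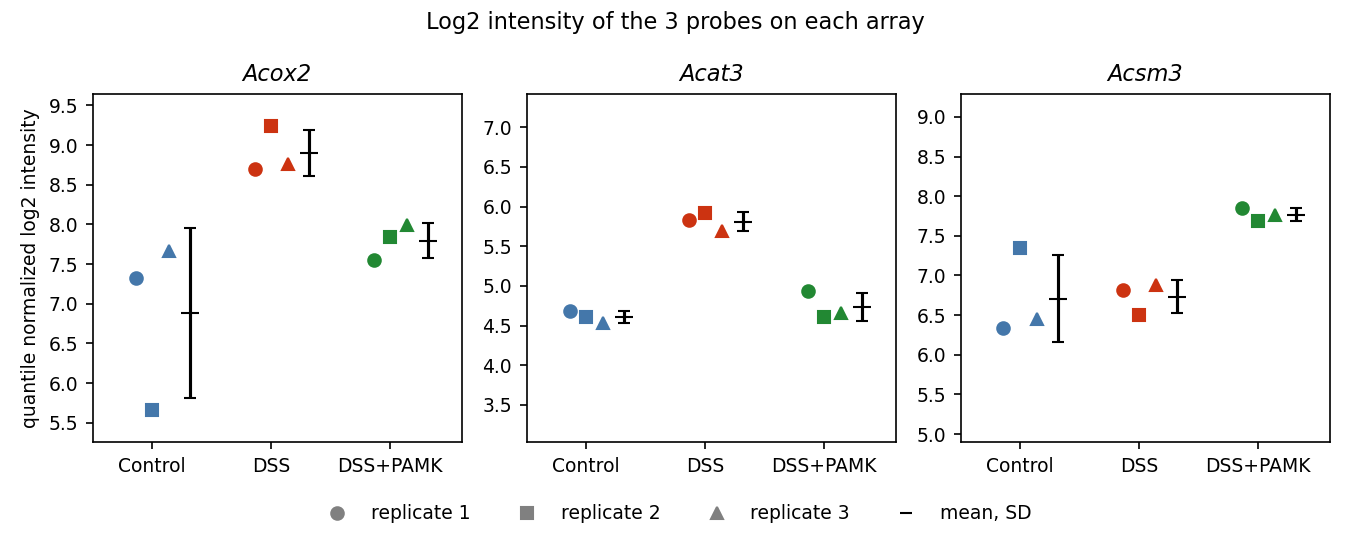
Normalized log2 processed intensity (y axis) of Acox2, Acat3 and Acsm3 on each array (points) by treatment group (x axis), with the group means. The 3 DSS arrays are the highest for Acox2 and Acat3, and the 3 DSS+PAMK arrays are the highest for Acsm3, while Control replicate 2 lies at 5.66 for Acox2.

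The groups did not overlap in 2 of the 3 members for DSS vs Control, both higher, where 10.5% of tested probes were higher and 8.23% lower without overlap. For DSS+PAMK vs DSS, 2 members were lower without overlap (6.53% of tested probes) and 1 was higher without overlap (9.46%). For DSS+PAMK vs Control, 1 member was higher without overlap (12.3%, with 12.2% lower). The members had been picked for these changes, and the comparisons share arrays, so the counts carry no support of their own.

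The processed intensity of Acox2 was 134, 54.5 and 200 on the Control arrays, 351, 693 and 491 on the DSS arrays and 195, 214 and 306 on the DSS+PAMK arrays. Acat3 was the dimmest member, with 35.0, 26.1 and 24.2 on the Control arrays, 47.0, 63.3 and 55.9 on the DSS arrays and 25.7, 19.4 and 30.6 on the DSS+PAMK arrays. Acsm3 had 76.3, 169 and 87.2 on the Control arrays, 93.1, 97.1 and 130 on the DSS arrays and 241, 192 and 261 on the DSS+PAMK arrays. The 3 DSS arrays were thus the brightest for Acox2 and Acat3, and the 3 DSS+PAMK arrays for Acsm3, also before normalization between arrays.

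**Figure D2:**
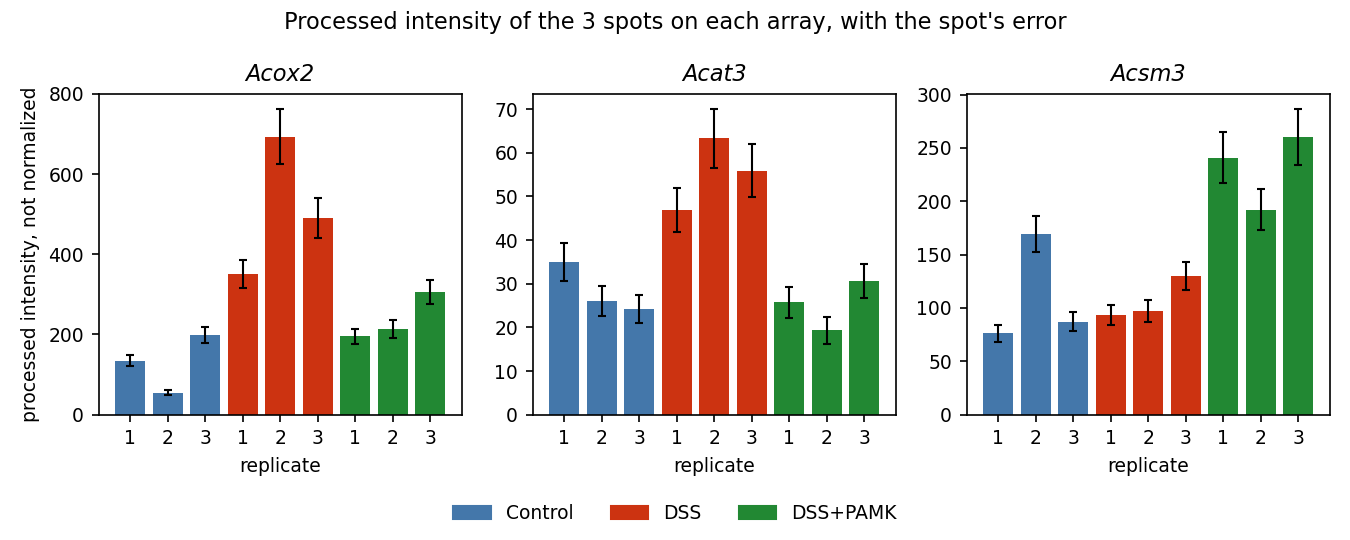
Processed intensity before normalization between arrays for the 3 members on each of the 9 arrays, by group, with the error of the spot given by the scanning software as error bars. Acat3 lies between 19.4 and 63.3, Acox2 between 54.5 and 693 and Acsm3 between 76.3 and 261.

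The error that the scanning software assigned to a spot was 10% to 10.9% of the intensity for Acox2, up to 16% for Acat3 and 10% to 10.6% for Acsm3. The mean signal was 4.08 to 27 times the local background for Acox2, 2.17 to 3.66 times for Acat3 and 4.71 to 12.2 times for Acsm3. Acat3 was thus measured closest to background. Each member had 1 spot per array, so its spread between spots is not known. Among the 998 probes with 10 spots, those at the level of Acox2, Acat3 and Acsm3 had a median SD between spots of one array of 0.063, 0.19 and 0.082 log2 units.

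The members also differed in their spread within groups. The within-group SD of Acox2 was 0.65, above 98% of the 9762 probes within 0.5 log2 units of its mean level, whose median was 0.21. Acat3 had a within-group SD of 0.13, above only 0.601% of 18147 such probes with a median of 0.40. That SD was also below the median SD between spots of an array at its level, 0.19, among probes with 10 spots. The Control arrays of Acat3 spanned 0.15 log2 units after quantile normalization, from processed intensities of 35.0, 26.1 and 24.2 before it. The members had also been picked for differences between these groups. The parts of the normalization and of that choice in the small spread were not tested. Acsm3 was between Acox2 and Acat3, with 0.34 against a median of 0.24. The spread of Acox2 and Acsm3 came mainly from the Control group, where the SD was 1.07 and 0.55.

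In each group, the same array was extreme for Acox2 and Acsm3, in opposite directions (Control replicate 2, DSS replicate 2, DSS+PAMK replicate 1). Between the remaining arrays of each group, both genes differed in the same direction. Removing the group means left 6 residual degrees of freedom for the 9 arrays. The Pearson correlation of Acox2 with Acsm3 was then -0.95 over the 9 arrays, and -0.66 over the 8 arrays without Control replicate 2. Both values come from the same arrays, which share normalization and RNA, and are given as a description. The same correlation was -0.08 for Acox2 with Acat3 and -0.09 for Acat3 with Acsm3. Without Control replicate 2 each of these was -0.23.

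**Figure D3:**
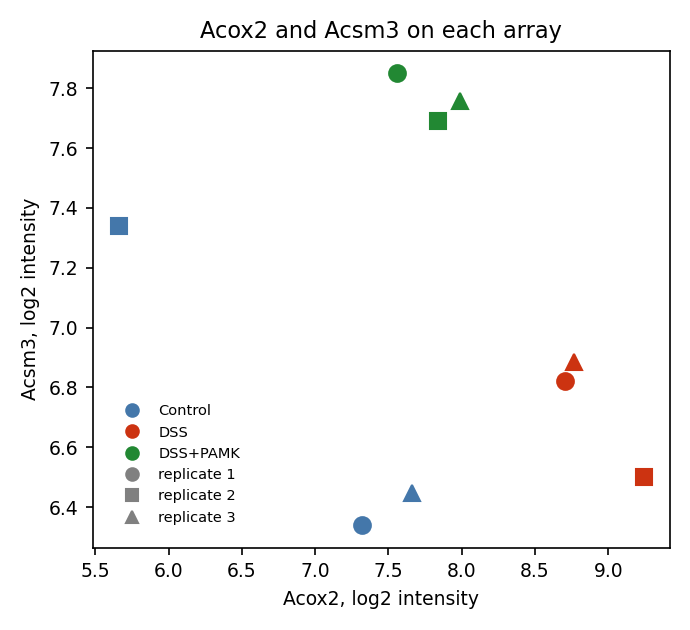
Normalized log2 intensity of Acsm3 against that of Acox2, 1 point per array, by group. Control replicate 2 has the lowest Acox2 (5.66) and the highest Control value of Acsm3 (7.34).

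The arrays lay on 3 slides, and the scan runs coincided with the slides. Slide 1 held the 3 Control arrays and DSS replicate 1, and within it the DSS vs Control difference was 1.82 for Acox2, 1.22 for Acat3 and 0.11 for Acsm3. Slide 2 held DSS replicates 2 and 3 with DSS+PAMK replicates 1 and 2, and within it the DSS+PAMK vs DSS difference was -1.31 for Acox2, -1.03 for Acat3 and 1.08 for Acsm3. The differences within slides, which reuse the same arrays, had the direction of those over all arrays. For Acsm3 in DSS vs Control both were near 0 (0.11 and 0.03), so their shared sign carries no weight. No slide held both Control and DSS+PAMK arrays, so that comparison has no value within a slide. With slide as a fixed block, where it is linked through the DSS arrays, the DSS+PAMK vs Control difference was 0.51 for Acox2, compared with 0.91 without the block, 0.19 for Acat3 and 1.19 for Acsm3.

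**Figure D4:**
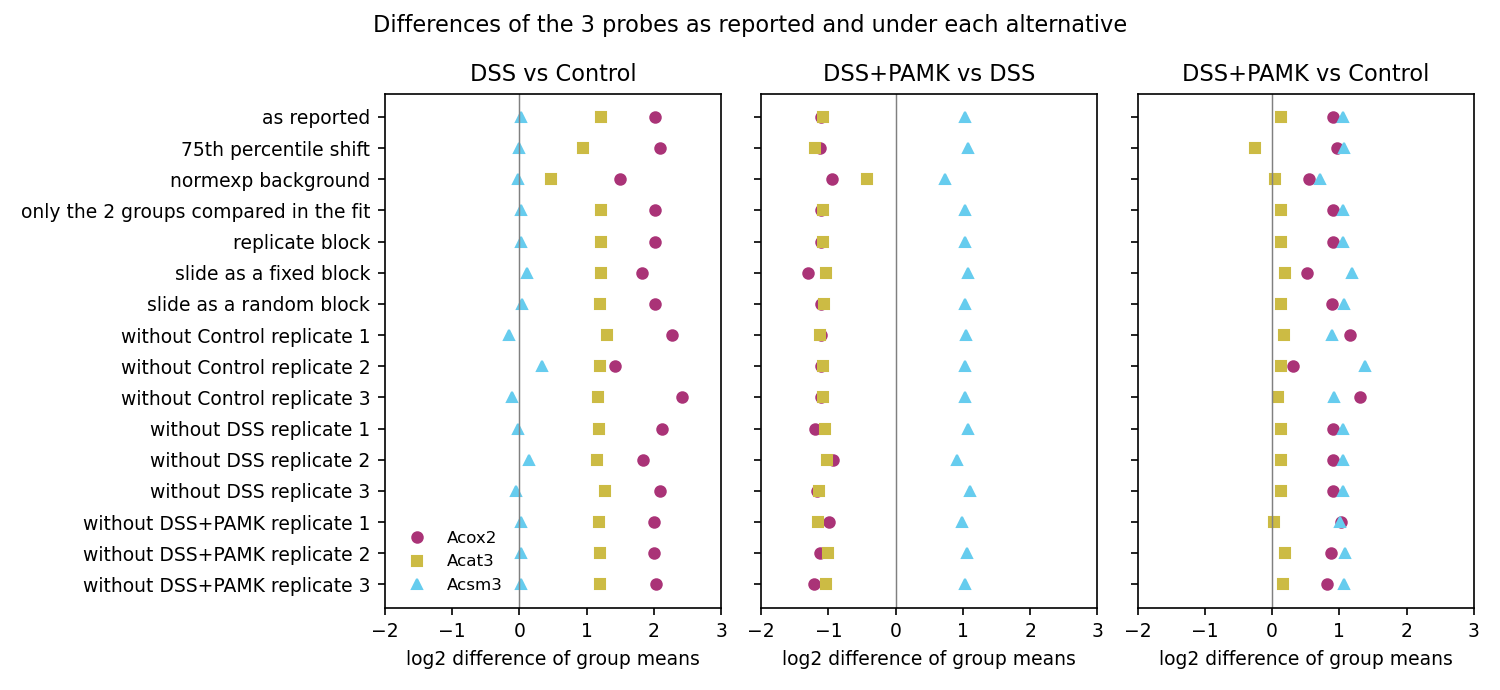
Log2 difference between groups (x axis) for each member and comparison, as reported and under the alternative settings. The differences of Acox2 and Acat3 for DSS vs Control stay above 0 in every setting shown, and those of Acsm3 for DSS vs Control lie on both sides of 0.

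The other genes of acyl-CoA metabolism could not be followed. Of 131 genes in 7 lists (acyl-CoA synthetases, peroxisomal and mitochondrial beta-oxidation, thiolases and ketone bodies, acyl-CoA thioesterases, sterol synthesis and PPAR receptors with their targets), 3 could be linked to a probe, and these were the members themselves. Paralogs and partners such as Acox3, Hsd17b4, Scp2, Amacr, Acat1, Acat2, Acsm1, Acsm2 and Acsm5 were therefore not analysed here.

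The genes with the most similar pattern were sought among 136 named probes of 129 genes that were well above background on all 9 arrays. These names came from supplementary sheets of genes that had been selected on these arrays, so similarity to them is a description. The closest to Acox2 were Eya2, a transcriptional coactivator (Pearson r = 0.96 over 9 arrays), the atrial myosin light chain Myl7 (0.96), Fyb2 (0.96), the interferon-induced gene Ifit1 (0.96) and Cd163l1 (0.95). All 5 had their lowest Control value in Control replicate 2, and without that array r was 0.89 to 0.95. The order of the genes rested on that array. Without it Eya2 ranked 10, Myl7 8, Fyb2 28, Ifit1 3 and Cd163l1 12 among the named genes. Eya2 had a mean of 5.60 in Control, 7.54 in DSS and 6.39 in DSS+PAMK.

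The closest to Acat3 were the potassium channel subunit Kcne4 (0.95), the mesenchymal homeobox gene Prrx1 (0.93), Lypd3 (0.93), the myeloid integrin gene Itgam (0.92) and the Wnt agonist Rspo1 (0.91). Kcne4 had means of 10.16, 11.52 and 10.30 in the same order of groups. For Acsm3 the closest were Slc5a6, the transporter of biotin and of pantothenate, the precursor of coenzyme A (0.97), Itih5 (0.96), Txndc16 (0.94), Sytl1 (0.93) and A630001G21Rik (0.92). All 5 had their highest Control value in Control replicate 2. Without that array Kcne4 still ranked 1 for Acat3, while Lypd3 rose from 3 to 2 and Prrx1 fell from 2 to 7. Itgam ranked 13 and Rspo1 9 for Acat3. Slc5a6 and Itih5 still ranked 1 and 2 for Acsm3, with Txndc16 at 6, Sytl1 at 7 and A630001G21Rik at 9. Slc5a6 had means of 8.00 ± 0.71, 7.86 ± 0.20 and 8.85 ± 0.097 (SD, n = 3 each). Over all 76394 probes compared, r was at least 0.9 for 311 probes with Acox2 (0.407%), 135 with Acat3 (0.177%) and 245 with Acsm3 (0.321%). Of these, 10, 15 and 5 were named. The highest r was 0.988, 0.991 and 0.992, so probes without a name lay closer to each member than the genes listed.

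**Figure D5:**
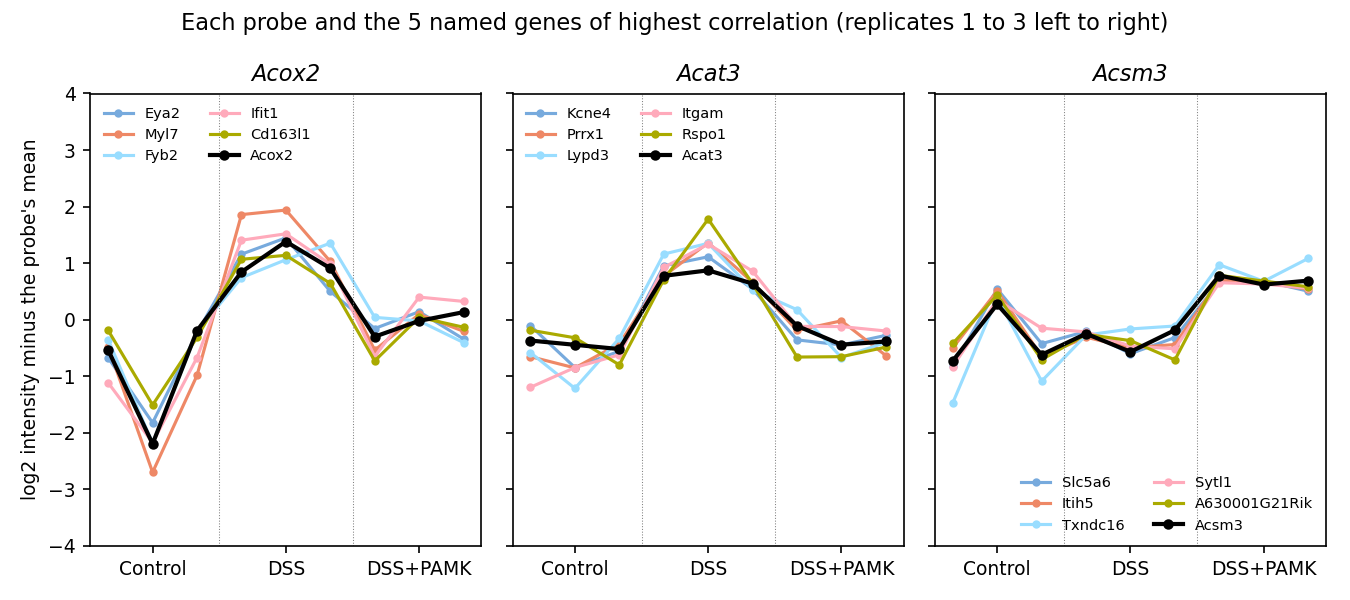
Normalized log2 intensity minus the probe's mean over the 9 arrays (y axis) for each member and its 5 closest named genes, with arrays on the x axis ordered by group and replicate number, where lines join the values of one gene and replicates have no order. The genes closest to Acox2 are at their lowest in Control replicate 2, and those closest to Acsm3 have their highest Control value there.

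Of 131 marker genes in 16 lists, 6 could be linked to a probe. Their names came from the same supplementary sheets of genes selected on these arrays, so their values are a description. Slc26a3, a chloride transporter of absorptive colonocytes, had a mean of 13.01 ± 0.30 in Control, 12.58 ± 0.24 in DSS and 13.69 ± 0.013 in DSS+PAMK (SD, n = 3 each). Fcgbp of goblet cells had 14.36 ± 0.13, 12.75 ± 0.18 and 13.83 ± 0.67. The DSS mean was the lowest of the 3 for both, but the highest DSS array of Slc26a3 (12.85) lay above its lowest Control array (12.83). The mast cell protease gene Cpa3 had means of 4.30, 7.49 and 6.48, and the mast cell receptor gene Ms4a2 was well above background on 0 Control, 3 DSS and 3 DSS+PAMK arrays. The neutrophil receptor gene Cxcr2 was well above background on 3 arrays, all of the DSS group. The hepatocyte gene Fga had 4.51, 6.22 and 3.98. The part of cell composition in the differences of Acox2, Acat3 and Acsm3 was not tested.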

How the data were processed

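Colonic RNA of 9 samples was labeled with Cy3 by the authors and hybridized to 1-color arrays, which were read with Agilent Feature Extraction 10.7.1.1. The intensity values the authors deposited are scanner output on a linear scale, corrected for background within each array and not normalized between arrays. Their error estimates are also deposited as intensity, and the background and outlier marks as flags. Quantile normalization and a t-test, which the study's methods name, came after these files and were redone.

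The log2 scale was computed here from the deposited intensity. Control spots and outlier spots were left out, log2 values were quantile normalized over the 9 arrays, and the spots of a probe were averaged. Probes were kept where all 3 arrays of any group were well above background, which left 99610. Group means were fitted with limma 3.58.1 (lmFit, eBayes) in R 4.3.3, with tables read by version 1.17.8 of the data.table package and jsonlite 2.0.0, with 6 residual and 2.5 prior degrees of freedom. Calls required a fold change of 2 or more with an unadjusted p of 0.05 or less.

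The members and gene lists were chosen with earlier results of these data known. Probe names came from the supplementary sheets, which gave 181 probes of 174 genes. The rule for named genes took the 3 members, called genes of the pathway lists (no gene beside the members was linked to a probe), paralogs and partners (none linked), and the 5 named genes most correlated with each member. Linked cell type markers are also given. Alternatives were another normalization and background correction, filters, the fit to the compared groups only, the methods' t-test, the replicate block, slide as a block (statmod 1.5.0) and single arrays left out. Precision is limited by 3 arrays per group.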

Additional observations from a re-analysis of the deposited data

How the results depend on the processing

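Across the alternatives, 5 differences of Acox2, Acat3 and Acsm3 moved by more than 1 SD between replicates. The fit to the compared groups only and the replicate block leave these differences as they are by construction. The Acat3 difference was 0.95 for DSS vs Control and -0.25 for DSS+PAMK vs Control with a shift to the 75th percentile, which moved the median of all probes by -0.11 for DSS vs Control, and with normexp it was 0.47 for DSS vs Control and -0.42 for DSS+PAMK vs DSS. Acsm3 was 0.73 for DSS+PAMK vs DSS with normexp. Its DSS vs Control difference changed sign in 6 of 15 alternatives, all near 0.

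Leaving out single arrays gave 1.42 to 2.42, 1.15 to 1.30 and -0.16 to 0.34 for Acox2, Acat3 and Acsm3 in DSS vs Control. For DSS+PAMK vs DSS the ranges were -1.21 to -0.94, -1.15 to -1.002 and 0.91 to 1.103, and for DSS+PAMK vs Control 0.31 to 1.31, 0.03 to 0.20 and 0.89 to 1.38. Over the whole array limma called 3045, 1698 and 2663 probes for DSS vs Control, for DSS+PAMK vs DSS and for DSS+PAMK vs Control. These counts were 614, 337 and 341 with normexp, 5472, 4462 and 5004 with no filter, 1530, 693 and 1357 for probes well above background on all 9 arrays, and 1907, 1019 and 1619 by the methods' t-test, which called 0 probes after Benjamini-Hochberg adjustment in DSS vs Control and 0 in DSS+PAMK vs DSS. With slide as a fixed block, DSS vs Control gave 9868 and DSS+PAMK vs Control 10652, and with the 75th percentile shift DSS+PAMK vs Control gave 5031. Single arrays left out gave 2878 to 4832, 1443 to 3899 and 1839 to 6013 probes, the highest without DSS replicate 2, DSS replicate 2 and Control replicate 2. The cause was not tested.

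Replicate numbers were not treated as pairs. Deviations were correlated over 0.1 in 0 of 9 same-numbered pairs (-0.2 to 0.09) and in 3 of 18 differently numbered pairs (-0.18 to 0.21). The check rests on 3 arrays per group and cannot exclude pairing. With the replicate number as a block, the counts were 2951, 1701 and 2704, and the difference of Acox2 in DSS vs Control was 2.02, as without it. The planned counts of called genes in the acyl-CoA lists, with their alternatives and that of probes per gene, were not run, since no other gene of the lists was linked to a probe.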
